A study of Mus musculus with 21 samples.

Results

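Wild-type DEC205 dendritic cells were compared with B cells of the mouse spleen. The 6 arrays titled DEC205_WT and B_cells, 3 of each, were taken from a series of 21 microarrays. Each DEC205 sample was RNA pooled from 40 to 80 wild-type C57BL/6 mice, and each B cell sample was RNA pooled from 5 to 8 mice of that strain and genotype. Levels in 3 other wild-type groups with 3 arrays each were used to place the shared genes: 33D1 dendritic cells, which are the other spleen dendritic cell subset of the study (40 to 80 mice a pool), and CD4 and CD8 T cells (5 to 8 mice a pool). DEC205 cells of C57BL/6 mice injected with a melanoma labelled Flt3L and killed on days 10 to 12 (20 mice a pool) are quoted beside some results. Every array was hybridised with cRNA from 5 µg of total RNA. The sample descriptions call all samples dendritic cells, the B and T cells included, so the groups follow the titles, and the gates of the sort are not known from these labels. The replicates are separate pools by their labels, and nothing in the labels says whether they were sorted on separate days, so the tests measure the spread between these pools.

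Dendritic cells (DCs) and B cells both take up antigen and present peptides from it on major histocompatibility complex (MHC) class II molecules to CD4 T cells. DEC205, the product of Ly75, is an endocytic receptor of the CD8-positive DC subset of the mouse spleen, a subset known for presenting antigen taken up from dying cells on MHC class I as well. B cells take up antigen through the B cell receptor, an immunoglobulin that signals through CD79A and CD79B. The study asked how antigen processing differs between DC subsets, and the B and T cells were its comparison populations.

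Signals are MAS5 intensities on a linear scale, with the same trimmed mean on every array. Of 45101 probe sets, 23946 that carry 1 gene symbol and passed a filter on low signal were tested, and each of 13284 genes was represented by its brightest probe set. Differences are DEC205 minus B cells on the scale log2(signal + 48.6), which shrinks the differences of dim genes. The value after ± is the SD over 3 arrays, SE is the standard error of the fit, and adjusted p is Benjamini-Hochberg adjusted from limma over all probe sets tested. A gene is called at an adjusted p under 0.05. Signals of different probe sets are not compared with each other. In bulk samples, fewer cells that hold a transcript and less of it in each cell cannot be told apart.

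The labels held on the genes that define the cells. Itgax, which encodes CD11c, read 12351, 12461 and 13659 on the DEC205 arrays and 38.8, 194 and 215 on the B cell arrays. Ly75 itself read 3104, 3131 and 2682 in DEC205 DCs against 308, 254 and 299 in B cells. Rab7b, a late endosomal GTPase, read 10121, 10530 and 10019 against 17, 63.7 and 10.9. Each of these was high on all DEC205 arrays and low on all B cell arrays. Cd79a ran the other way, at 65.4, 128 and 59.8 in DEC205 DCs and 29397, 27544 and 30634 in B cells.

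**Figure D1:**
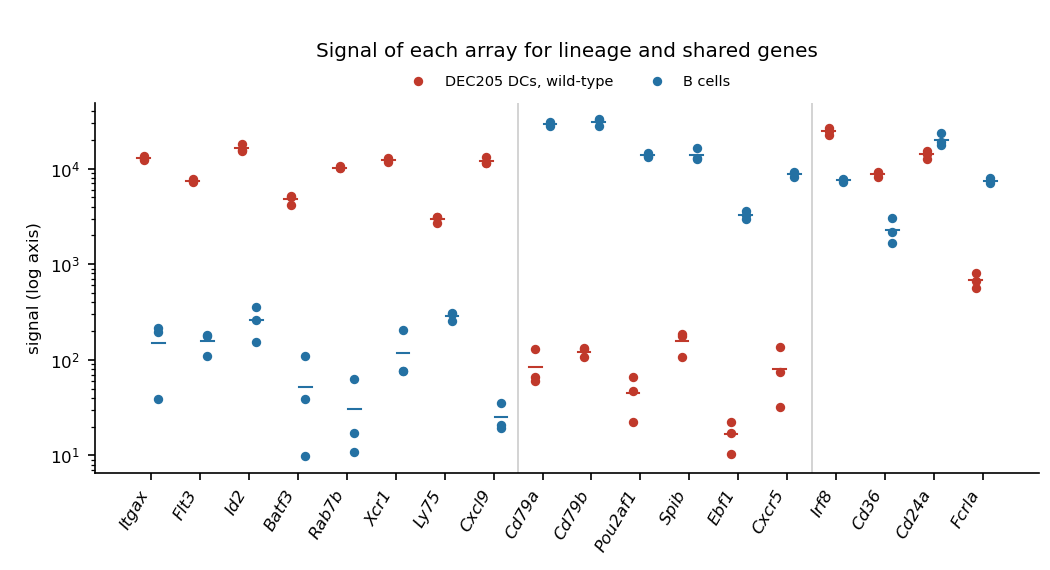
Signal on each array (log axis) of DC genes (left), B cell genes (middle) and genes of both (right) in wild-type DEC205 DCs (red) and B cells (blue); points are the 3 arrays of a group and bars their mean. The DC and B cell genes do not overlap between the groups, whereas Cd24a lies at 12711 to 23501 on all 6 arrays.

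The cell types stood far apart. Over the brightest probe set of each gene, the log2 signals of DEC205 arrays correlated with each other at r = 0.964 to 0.977. B cell arrays did so at 0.963 to 0.976, whereas DEC205 arrays correlated with B cell arrays at 0.773 to 0.8. DEC205 arrays correlated more closely with 33D1 arrays (0.874 to 0.912) than with B cell arrays, and B cell arrays correlated at 0.81 to 0.849 with T cell arrays. These correlations run across probe sets, which are not independent replicates.

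In all, 2398 of 13284 genes (18.1%) were called higher in DEC205 DCs and 2710 (20.4%) lower. With median centring of the arrays 2179 were higher and 1701 lower, so the direction with more calls depended on the scaling. At a difference of at least 2-fold as well, 1292 genes (9.73%) were higher and 1047 (7.88%) lower. At 16-fold or more, 121 were higher and 93 lower. The median over all genes was -0.08. Of the 8176 genes that were not called, 6241 had a 95% interval wholly within 2-fold of equality, so for most of them a larger difference was outside the interval, while for the rest the arrays did not settle it. Of the genes called at 2-fold, 1190 had further probe sets, and for 8 of these a further probe set was called in the opposite direction (Dhx32, Dus2, Gpt2, Mideas, Ms4a6c, Mtm1, Tpx2 and Tubb6, named after their values were seen).

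**Figure D2:**
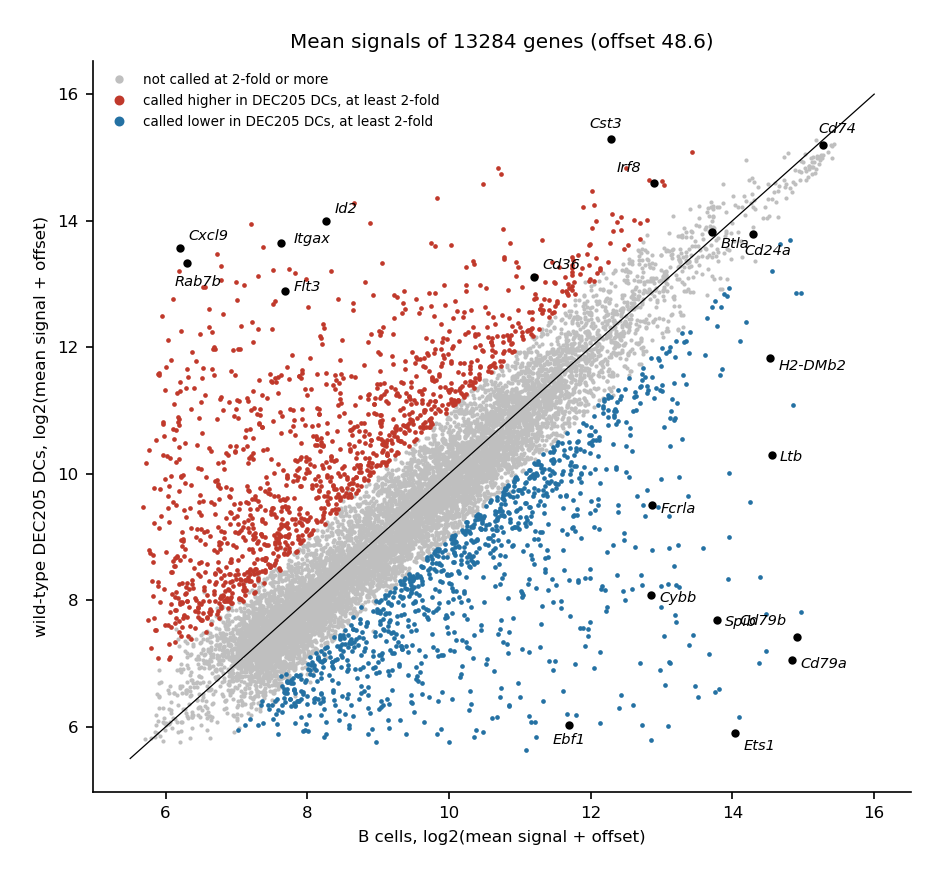
Mean signal of each of 13284 genes in B cells (x axis) and wild-type DEC205 DCs (y axis), both as log2(mean of 3 arrays + 48.6); coloured points were called with a difference of at least 2-fold and the line marks equality. Cxcl9 and Rab7b lie far above the line, Ets1 and Cd79a far below it, and Cd74, Btla and Cd24a close to it.

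The largest rises in DEC205 DCs were in genes that were dim in B cells. Cxcl9, a chemokine that draws CXCR3-bearing T cells, read 11340, 11478 and 13324 in DEC205 DCs and 19.4, 35 and 20.9 in B cells, a difference of 7.36 (SE 0.19, adjusted p = 3.54e-17). Rab7b followed with 7.08 (SE 0.45, adjusted p = 2.39e-11). Its further probe sets read 3498 and 690 on average in DEC205 DCs and 107 and 74.8 in B cells, so all 3 placed the transcript in DEC205 cells. Treml4, a receptor of the TREM family that binds dying cells, read 10287, 9432 and 8595 against 14.9, 19.7 and 37.7, and its difference was 7.04 (SE 0.22). Tgfbi, an extracellular matrix protein, had 6.77 (SE 0.23) and Cd8a 6.76 (SE 0.34).

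Cd8a encodes the surface protein for which the subset is named. It read 15806, 16334 and 15329 in DEC205 DCs and 106, 123 and 68.6 in B cells, while CD8 T cells averaged 19078 ± 629.5. All 5 Cd8a probe sets were called higher in DEC205 DCs. Pdia5, a protein disulfide isomerase of the endoplasmic reticulum, read 6566, 7467 and 6664 against 18.6, 22.5 and 20.3, with a difference of 6.65 (SE 0.33). Xcr1, the receptor for the chemokine XCL1 and a hallmark of this DC subset, read 11649, 12870 and 12187 against 203, 75.6 and 75.6. Havcr2, which encodes TIM-3, read 7997, 8497 and 7213 against 37.6, 20.7 and 78.1. None of these overlapped between the cell types.

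The other genes among the 15 largest rises were Aif1 (difference 6.56), Tbc1d4 (6.53) and Tbc1d8 (6.38), the last 2 being Rab GTPase-activating proteins, Shtn1 (6.49), Fgl2 (6.27), Itgax (6.18) and Lyz1 (6.11), a lysozyme. Not all of them marked DEC205 cells among DCs. The 33D1 DCs averaged 9001 ± 994 for Tgfbi, 6157 ± 412 for Fgl2 and 12990 ± 2304 for Tbc1d4, but only 53.5 ± 35.1 for Rab7b, 28.6 ± 13.6 for Pdia5 and 161 ± 42.8 for Xcr1.

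The largest falls joined B cell genes with genes of lymphocytes in general. Ets1, a transcription factor of lymphocytes, had the lowest value, -8.14 (SE 0.17, adjusted p = 1.13e-18). It read 16.3, 8.5 and 8.7 in DEC205 DCs and 17542, 16879 and 15801 in B cells, and the T cells lay higher still, at 22819 ± 1937 for CD4 and 20319 ± 401 for CD8. Gimap4 and Gimap6, GTPases that act in lymphocyte survival, fell by 7.22 and 7.08 on the log2 scale, and they too were bright in T cells (24509 and 11981 in CD4 T cells). Ly6d, a surface marker of B cells and their precursors, read 117, 64.5 and 59.2 against 22278, 20111 and 21080, with 110.3 on average in CD4 T cells. Fcmr, the Fc receptor for IgM, read 114, 113 and 71 against 22315, 21460 and 24273. Cd55, which holds complement off the cell surface, read 2.7, 44.2 and 3.3 against 6525, 6933 and 6685, and the T cells stood between, at 1102 and 1009.

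The antigen receptor itself was a B cell property. Of 19 genes measured from the list of the B cell receptor and its coreceptors, 15 were called lower in DEC205 DCs, 2 higher and 2 were not called, with a median of -3.77, against 20.4% of all genes called lower. Cd79b read 128, 106 and 132 in DEC205 DCs and 32292, 27763 and 32642 in B cells. Blnk, the adaptor that links the receptor to its downstream enzymes, read 15.6, 95.9 and 9.5 against 11364, 12200 and 11443. Neither gene's signals overlapped between the cell types. The Src family kinase gene Blk differed by -6.27 (SE 0.38), the complement receptor gene Cr2 by -6.0 (SE 0.28), and Cd72, an inhibitory coreceptor, by -5.13 (SE 0.28). Bank1, a scaffold of this signalling, differed by -4.95 (SE 0.28) and Vpreb3 by -4.38 (SE 0.28).

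Other members were lower, and some of them were still well lit in DEC205 DCs. Ms4a1, which encodes CD20, read 2198, 1816 and 2345 in DEC205 DCs and 30936, 26772 and 30747 in B cells, with 228 in CD4 T cells and a difference of -3.77 (SE 0.29). The same gene stood further apart in DEC205 cells from Flt3L mice, at -5.45; both differences use the same B cell arrays. Cd22 and Siglecg, both inhibitory lectins, differed by -4.72 and -3.76, and both were bright in 33D1 DCs (6105 ± 1049 and 5629 ± 569). In DEC205 DCs they averaged 706 and 598, against 394 and 177 in CD4 T cells. A second Cd22 probe set averaged 151.7 in DEC205 DCs and 9040 in B cells. The kinase Syk, which DCs also use below lectin and Fc receptors, read 1798, 1364 and 1828 against 9884, 7816 and 7345, a difference of -2.29 (SE 0.18).

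The enzymes further down differed less. Plcg2, the phospholipase of this pathway, differed by -0.47 (SE 0.15, adjusted p = 0.0165) and Vav2, an exchange factor, by -0.9 (SE 0.27, adjusted p = 0.0125). Both calls were lost with median centring, that of Plcg2 also without B cell replicate 1 and that of Vav2 without B cell or DEC205 replicate 2. The kinase Btk had -0.76 (95% interval -1.39 to -0.13, adjusted p = 0.0555) and the adaptor Pik3ap1 -0.19 (95% interval -0.50 to 0.12, adjusted p = 0.35), and neither was called; Btk was called lower under 4 of 15 alternative settings. Cd81, a tetraspanin, rose in DEC205 DCs by 0.78 (SE 0.17, adjusted p = 9.93e-04), and so did Ifitm1 by 0.97 (SE 0.30, adjusted p = 0.0146), whose call was lost when B cell replicate 2 or 3 or DEC205 replicate 3 was left out (differences 0.77 to 0.87).

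Immunoglobulin transcripts separated the cell types with one exception in level. Iglv1, a lambda variable segment, read 43, 17.3 and 8.9 in DEC205 DCs and 18022, 15504 and 18655 in B cells, and the kappa transcript Igk read 5.7, 9.1 and 5.1 against 6142, 6888 and 8970.4. The probe sets named Igkv8-30, Igkv9-120 and Ighv14-2 had differences of -7.18, -6.89 and -6.71; such probe sets can read several segments of 1 family. Ighm, the constant region of IgM, was bright in every group on its brightest probe set. It read 7257, 6728 and 8210.5 in DEC205 DCs and 31172, 27526 and 32590 in B cells, with a mean of 15294 in CD4 T cells. Its difference was -2.03 (SE 0.15, adjusted p = 2.15e-10). A second bright Ighm probe set averaged 5376 in DEC205 DCs, 38791 in B cells and 9164 in CD4 T cells. The dimmer Ighm probe sets averaged 172.4 to 359.4 in DEC205 DCs, 374.1 to 1624 in B cells and 118.5 to 582.7 in CD4 T cells. Among them, differences of -0.85 (adjusted p = 0.0697) and -0.76 (adjusted p = 0.308) were not called. The brightness of Ighm in every group thus depends on the probe set. Igk and Iglv1 were dim in the same DEC205 and T cell samples.

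B cell replicate 3 stood apart on the genes of antibody-secreting cells. Jchain, which joins IgM and IgA chains, read 337, 322 and 8362 on the 3 B cell arrays and 275, 172 and 109.6 on the DEC205 arrays. Its difference was -2.24 (SE 0.73, adjusted p = 0.0193) with all arrays and -0.75 (adjusted p = 0.136) without B cell replicate 3, and without DEC205 replicate 3 its call was lost as well (-1.99, adjusted p = 0.0748). Ighg3 behaved alike, with 358, 262 and 1499 in B cells, a difference of -1.36 (SE 0.47, adjusted p = 0.029) and -0.65 (adjusted p = 0.253) without that replicate. It was not called without DEC205 replicate 2 (-1.19, adjusted p = 0.0982) or 3 (-1.35, adjusted p = 0.0653) either. Over the immunoglobulin list, 4 of 5 genes were called lower with all arrays and 2 without B cell replicate 3 or without DEC205 replicate 3. Of the plasma cell list, 5 of 7 were called lower and 3 without B cell replicate 3. The summed signal of that list ran from 23489 to 40229 in B cells and from 9517 to 10437 in DEC205 DCs. Mzb1, an endoplasmic reticulum protein of B1 and marginal zone B cells, was high on all 3 B cell arrays, at 13565, 13771 and 19397 against 206, 367 and 249.7.

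All 14 transcription factors of the B cell list were called lower in DEC205 DCs (20.4% of all genes were), with a median of -2.39. Pou2af1 encodes OCA-B, the coactivator that binds octamer factors at immunoglobulin promoters. It read 66.2, 47.6 and 22.6 in DEC205 DCs and 13136, 13462 and 14626 in B cells, a difference of -7.22 (SE 0.21, adjusted p = 1.27e-16). Ebf1, which specifies the lineage, read 17.3, 10.3 and 22.5 against 3562, 3284 and 2980. Ikzf3 (Aiolos) read 67.5, 66.4 and 87.1 against 4188, 4326 and 4032, and Spib, an Ets factor, 107, 188 and 178 against 16353, 12706 and 12901. The DEC205 arrays were low and the B cell arrays high for each. Pax5, the factor that maintains B cell identity (named after its value was seen), was dim on its probe sets also in B cells, at 1174, 819 and 574, and differed by -2.06 (SE 0.44). The smallest difference of the list was that of Hhex, -1.36 (SE 0.17), with 2199.7, 1733 and 2041 still present in DEC205 DCs; it was named after its value was seen.

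Octamer motifs are shown because the coactivator Pou2af1 was among the 15 largest falls. The octamer ATGCAAAT was searched on both strands, its other strand reading ATTTGCAT, in RefSeq promoter windows from 250 bases before to 50 after the gene start (GRCm38.p6). Of 88 windows of genes at least 16-fold lower in DEC205 DCs, 5 held it (5.68%), against 1.31% of windows of all genes tested, 0.8% of windows of genes at least 16-fold higher and none of 22 windows of the shared genes described further on. The 5 windows belong to Blnk, Vpreb3, Ccr6, Chchd10 and Ms4a4c, and 4 are printed with the octamer in capitals:
Vpreb3 (chr10:75948225-75948292, plus strand): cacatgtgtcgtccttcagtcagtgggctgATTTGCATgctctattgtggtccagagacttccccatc
Blnk (chr19:40994314-40994381, minus strand): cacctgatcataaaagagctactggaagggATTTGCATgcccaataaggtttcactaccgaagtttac
Ccr6 (chr17:8235945-8236012, plus strand): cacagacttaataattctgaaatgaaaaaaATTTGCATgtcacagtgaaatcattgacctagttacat
Chchd10 (chr10:75933017-75933097, plus strand): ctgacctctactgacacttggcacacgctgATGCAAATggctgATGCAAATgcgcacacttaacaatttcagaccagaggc
The octamer starts 45 bases before the gene start in Vpreb3, 130 before it in Blnk and 68 before it in Ccr6, and Chchd10 holds 2 copies, at 83 and 70 before it. Chchd10, a mitochondrial protein gene named because of its motif, read 150.1, 358 and 254 in DEC205 DCs and 6744, 6938 and 6508 in B cells. Vpreb3 read 90.8, 159 and 208 against 4568, 3843 and 3657. A match of letters is a description of the window and no evidence of binding.

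Of 14 DC transcription factors measured, 7 were called higher in DEC205 DCs (18.1% of all genes were), 3 lower (20.4%) and 4 were not called. Id2, which holds back E proteins and with them the B cell program, read 15157, 17888 and 15804 in DEC205 DCs and 153, 262 and 359.8 in B cells, a difference of 5.79 (SE 0.23, adjusted p = 8.18e-15). Batf3, required for CD8-positive DCs, read 5192, 4164 and 5033 against 38.7, 108 and 9.8, and Zbtb46, a factor of conventional DCs, 3840.4, 2586 and 2488 against 56.8, 50.7 and 55. Irf4 was lower, with 28.9, 108 and 152 against 1646, 2309 and 2618 and a difference of -4.03 (SE 0.38). Spi1, which encodes PU.1 and acts in both lineages, averaged 5269.8 ± 405 in DEC205 DCs and 1965 ± 195 in B cells, a difference of 1.4 (SE 0.15); it was named after its value was seen. Cebpb and Irf2, the other 2 that were lower and named for that reason, differed by -1.4 and -0.64, and the count of 3 was 1 without B cell replicate 2.

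Markers of the CD8-positive subset were the list most one-sided toward DEC205 DCs by its median, 4.96, among the 33 lists. Its members were chosen with earlier results of these data known, so its rank and share of calls describe the list and are no test. Of 15 genes measured, 14 were called higher (93.3%, against 18.1% of all genes) and none lower. Ppt1, a lysosomal thioesterase, read 20771, 28477 and 24215 against 1397, 1279.7 and 1455. Naaa, an acid amidase, read 18955, 23462 and 20235 against 852, 818 and 919, and Gcsam 5558, 6121 and 4343 against 81.8, 83.8 and 137. The 1 marker not called was Btla, an inhibitory receptor, which both cell types carried. Of the general DC markers, 10 of 13 were called higher (76.9%), 1 lower (7.7%, against 20.4% of all genes) and 2 were not called. Flt3, the receptor that drives DC growth, differed by 5.22 (SE 0.16).

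The list of CD8-negative DC markers gave 6 higher (50%, against 18.1% of all genes), 2 lower (16.7%, against 20.4%) and 4 not called of 12. Ltb (lymphotoxin beta) and the Notch modifier Dtx1 were the 2 that fell, with 1374, 696 and 1564 against 25091, 22532 and 24254 and 148, 265 and 814 against 4212, 6253 and 8384. Esam rose, with 461, 647 and 619 against 158, 169 and 190.1, and Ccr2 with 1002, 509 and 608 against 20, 49.4 and 85.5. In 33D1 DCs Esam averaged 2460, above DEC205 DCs, whereas Ccr2 averaged 151, below them. The summed signal of this list was 3152 to 8832 in DEC205 DCs, 29799 to 33858 in B cells and 95998 to 103431 in 33D1 DCs. DEC205 replicate 3 held the highest Dtx1 signal of its group. Without that array 4 of the 12 were called higher.

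**Figure D3:**
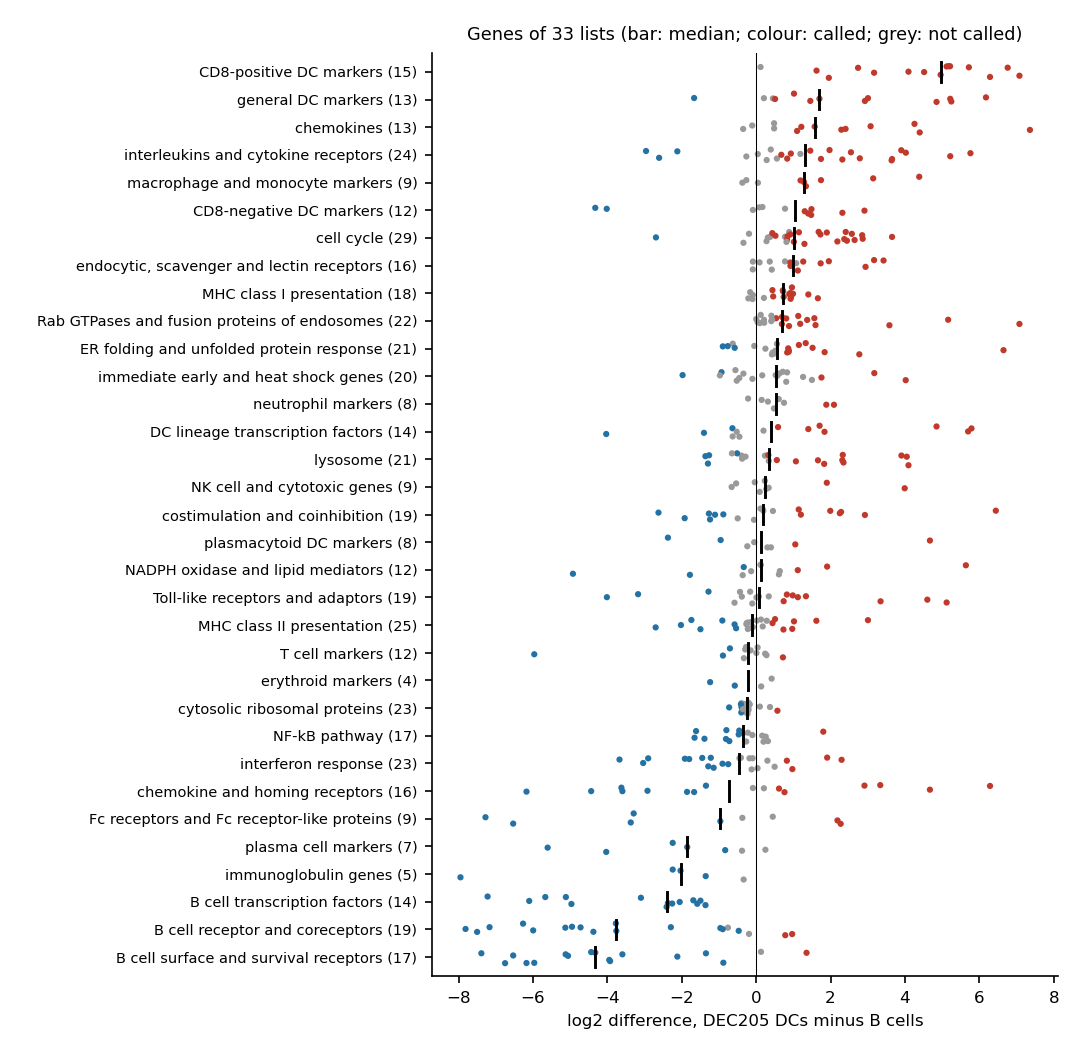
Log2 difference, DEC205 DCs minus B cells, of every measured gene of 33 lists (points; red called higher, blue called lower, grey not called), with the list median as a bar and the number measured in parentheses. Medians run from -4.33 for B cell surface and survival receptors to 4.96 for CD8-positive DC markers.

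Surface receptors of B cells were lower in DEC205 DCs in 15 of 17 cases (88.2%, against 20.4% of all genes), with a median of -4.33. Tnfrsf13b (TACI), a receptor for the survival factors BAFF and APRIL, differed by -5.12 (SE 0.16), Cxcr5, which guides B cells into follicles, by -6.18 (SE 0.25), and the tetraspanin gene Cd37 by -3.95 (SE 0.16). Cd1d1, which presents lipids to NKT cells, was the 1 that rose, with 6823 ± 449 in DEC205 DCs and 2669.8 ± 512 in B cells (1.35, SE 0.16); it was named after its value was seen. Among 9 Fc receptors and their relatives, 5 were lower (55.6%) and 2 higher (22.2%, near the 18.1% of all genes). Fcer2a, the low-affinity IgE receptor CD23, read 72.2, 91.9 and 117 against 13363, 13216 and 12516. Fcrl1 was lower but not dim in DEC205 DCs, at 929, 907 and 967 against 8504, 9814 and 10557 and 219 in CD4 T cells.

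Of 25 MHC class II presentation genes measured, 7 were called higher in DEC205 DCs and 7 lower (28% each, against 18.1% and 20.4% of all genes) and 11 were not called, with a median of -0.12. Of the 25, 15 lay at least 2-fold above both T cell groups in both cell types with all 4 differences called, where 2.16% of all genes did. The chains H2-Aa, H2-Ab1 and H2-Eb1 were not called. H2-Ab1 read 29759, 38175 and 34747 in DEC205 DCs and 26081, 26720 and 31347 in B cells, and 134 on average in CD4 T cells. Its difference was 0.28 (95% interval -0.42 to 0.99, adjusted p = 0.57). H2-Aa differed by -0.12 (95% interval -0.78 to 0.53, adjusted p = 0.81) and H2-Eb1 by 0.02 (95% interval -0.52 to 0.55, adjusted p = 0.97). Cd74, the invariant chain that guards the peptide groove, read 32297, 41909 and 38167 against 40203, 37012 and 41711, a difference of -0.09 (95% interval -0.66 to 0.49, adjusted p = 0.85). The groups overlapped for all 4. These probe sets are among the brightest on the arrays, and saturation was not tested. Of 4 H2-Aa probe sets, the dimmest in DEC205 DCs (8427 against 5803) was called higher, by 0.55 (adjusted p = 0.019).

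The peptide editors did not move together. H2-DMa rose by 0.51 (SE 0.14, adjusted p = 0.00525), with 14147, 14225 and 13649 in DEC205 DCs against 8530.5, 9603 and 11620 in B cells. H2-DMb2, a gene of its partner chain, fell, with 3108, 3502 and 4178 against 22729, 25941 and 22018. The difference was -2.7 (SE 0.29, adjusted p = 1.31e-07). The other gene of that chain, H2-DMb1, was not among the list genes measured. The further H2-DMb2 probe sets gave -2.23 and -2.37, and all 3 were bright in 33D1 DCs (10605 to 16630). H2-Ob, a chain of the DM inhibitor DO that B cells are known for, fell by 0.91, with 8053, 7976 and 7067 still read in DEC205 DCs against 15161, 14715 and 13610. Its partner H2-Oa had -0.22 (95% interval -0.52 to 0.07, adjusted p = 0.25) and was not called. With quantile normalization H2-Oa was called lower (-0.33, adjusted p = 0.0343). H2-Eb2, a class II beta chain, fell to 620.1 ± 265 against 2555 ± 323, a difference of -2.02 (SE 0.33).

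Of the genes that act on degradation, Cst3 encodes cystatin C, an inhibitor of cathepsins. It read 33386, 46141 and 40742 in DEC205 DCs and 4861, 4466 and 5439.7 in B cells, a difference of 3.01 (SE 0.15, adjusted p = 4.05e-13). The protease cathepsin B (Ctsb) rose by 1.62 (SE 0.17) and cathepsin E (Ctse) by 0.73 (SE 0.15), but the second Ctse probe set was called lower (-0.75, adjusted p = 0.00567), so its direction depends on the probe set. Legumain (Lgmn), which opens antigens for further cutting, fell by 1.74, from 2625 ± 264 in B cells to 753 ± 112. Cathepsin C (Ctsc) fell by 1.5 and cathepsin D (Ctsd) by 0.54, a call lost with median centring. Cathepsin S (Ctss), which trims the invariant chain, read 16285, 20836 and 18542 against 20954, 19753 and 20482 and differed by -0.14 (95% interval -0.42 to 0.13, adjusted p = 0.45). The other members of the degradation step were not called: Ctsh (-0.25, 95% interval -0.59 to 0.08, adjusted p = 0.25), Ctsl (-0.23, 95% interval -0.76 to 0.31, adjusted p = 0.55), Ctsz (0.18, 95% interval -0.14 to 0.50, adjusted p = 0.42) and the thiol reductase Ifi30 (0.13, 95% interval -0.11 to 0.36, adjusted p = 0.43). Every B cell value of Ctsh lay above every DEC205 value, and with quantile normalization Ctsh was called lower (-0.37, adjusted p = 0.0162).

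The regulators differed less than the class II genes at the ends of the list. Ciita, the master activator of class II genes, read 5078, 4246 and 4415 against 2613, 2654 and 1599 and rose by 1.02 (SE 0.31, adjusted p = 0.0133). Without B cell replicate 3 the rise was 0.78 (adjusted p = 0.0804). The difference was 0.32 in DEC205 cells of Flt3L mice, which share the B cell arrays. Of the RFX complex that binds class II promoters, Rfxap rose by 0.97 (SE 0.18), Rfx5 fell by 0.58 and Rfxank had -0.26 (95% interval -0.58 to 0.06, adjusted p = 0.21). Marchf1, the ligase that returns class II from the surface, rose by 0.44 (SE 0.16, adjusted p = 0.0354), a call that was lost under 9 of 15 alternative settings.

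**Figure D4:**
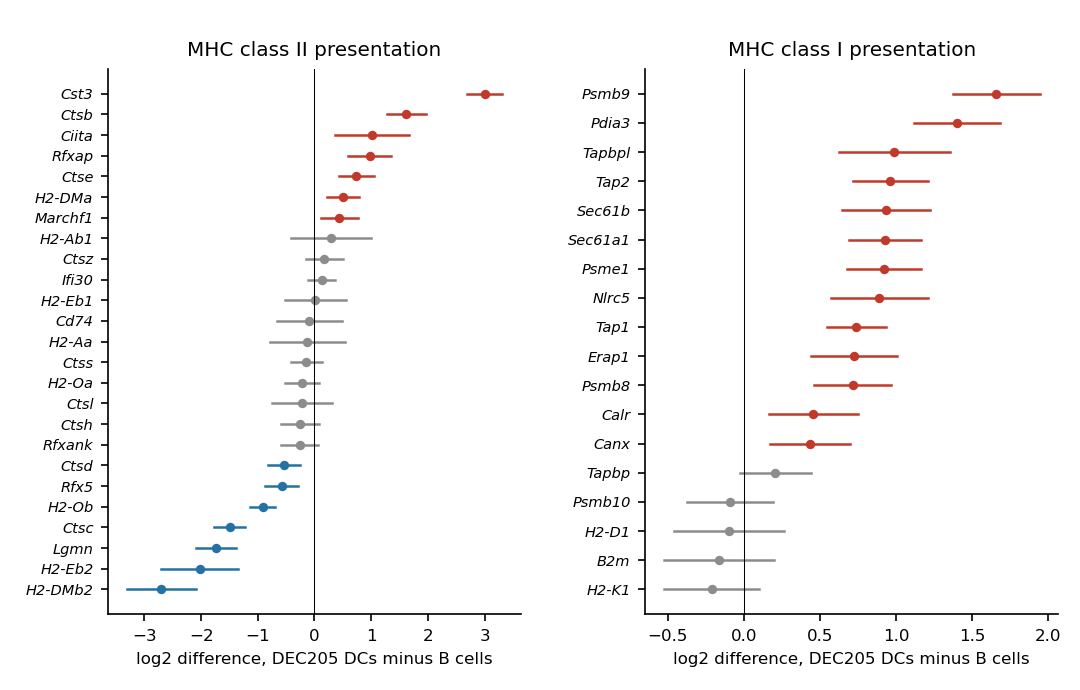
Log2 difference, DEC205 DCs minus B cells, with its 95% interval, for the measured genes of MHC class II (left) and class I (right) presentation; red was called higher, blue lower, grey not called. Class II genes run from -2.70 (H2-DMb2) to 3.01 (Cst3), whereas no class I gene was called lower.

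MHC class I presentation leaned toward DEC205 DCs. Of 18 genes measured, 13 were called higher in DEC205 DCs (18.1% of all genes were), none lower and 5 were not called, with a median of 0.73. Most of the differences were small, and 2 reached 2-fold. Psmb9, a subunit of the immunoproteasome, read 17214, 17124 and 16779 in DEC205 DCs and 4285, 5452 and 6594 in B cells, a difference of 1.66 (SE 0.14, adjusted p = 1.90e-09). Pdia3 (ERp57), which helps to load class I, rose by 1.4 (SE 0.14). The other immunoproteasome subunits parted, with Psmb8 higher by 0.71 (SE 0.12) and Psmb10 at -0.09 (95% interval -0.37 to 0.19, adjusted p = 0.66). None of the members lay above T cells in both cell types.

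The peptide transporter chains Tap1 and Tap2 rose by 0.74 (SE 0.09) and 0.96 (SE 0.12). Tapbpl, a peptide editor related to tapasin, rose by 0.99 (SE 0.18), the trimming protease Erap1 by 0.73 (SE 0.14) and the proteasome activator Psme1 by 0.92 (SE 0.12). Nlrc5, the class I counterpart of Ciita, rose by 0.89 (SE 0.15). Sec61a1 and Sec61b, subunits of a channel of the endoplasmic reticulum that has been considered for antigen export, rose by 0.93 (SE 0.11) and 0.94 (SE 0.14). The chaperones Canx and Calr rose by 0.44 (SE 0.13) and 0.46 (SE 0.14). Both calls were lost with median centring and without B cell replicate 1, and that of Calr also without B cell replicate 2 or DEC205 replicate 3. The class I molecules showed no such lean. H2-K1 differed by -0.21 (95% interval -0.52 to 0.10, adjusted p = 0.31), H2-D1 by -0.1 (95% interval -0.46 to 0.26, adjusted p = 0.72), B2m by -0.16 (95% interval -0.52 to 0.20, adjusted p = 0.52) and the loading factor Tapbp by 0.21 (95% interval -0.02 to 0.44, adjusted p = 0.16).

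Genes of the endoplasmic reticulum gave 10 higher (47.6%, against 18.1% of all genes), 3 lower (14.3%, against 20.4%) and 8 not called of 21, with a median of 0.56. Apart from Pdia5, the members with the smallest adjusted p were Creld2 (1.84, SE 0.15), the disulfide isomerase P4hb (1.33, SE 0.11) and Sdf2l1 (2.77, SE 0.26). Of 22 Rab GTPases and fusion proteins of endosomes, 13 were higher (59.1%), none lower and 9 not called, with a median of 0.69. Rab32, a GTPase of lysosome-related organelles, read 6751, 6908 and 5876 in DEC205 DCs and 154, 131 and 118 in B cells (5.16, SE 0.16). Rab43 read 12379, 12911 and 12115 against 938, 961 and 1095 (3.58, SE 0.15). Rab43 has been tied to cross-presentation in this DC subset. The SNARE protein gene Snap23 rose by 1.18 (SE 0.13).

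Of 21 lysosomal genes measured, 11 were higher (52.4%, against 18.1% of all genes), 4 lower (19%, near the 20.4% of all genes) and 6 not called. Gusb (beta-glucuronidase) read 12976, 12950 and 12562 against 879.9, 744 and 812, a difference of 3.91 (SE 0.12), and 33D1 DCs averaged 1286 ± 208. The macrosialin gene Cd68 rose by 4.05 (SE 0.18) and the mannosidase Man2b1 by 2.32 (SE 0.12). The 4 that fell were Tpp1 (-1.36), Neu1 (-1.3), Ctsa (-1.27) and Mcoln1 (-0.51), named after their values were seen. Among 16 uptake and scavenger receptors 9 were higher (56.2%) and none lower. Scarb1, a lipoprotein receptor, differed by 2.94 (SE 0.18), and Cd207 (langerin) read 1559.9, 1479.8 and 852 against 33.7, 45.2 and 183.

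Of 19 Toll-like receptors and partners, which sense microbial ligands, 8 were higher (42.1%, against 18.1% of all genes), 3 lower (15.8%, against 20.4%) and 8 not called. Tlr3, which senses double-stranded RNA, differed by 5.12 (SE 0.27). Tlr12 read 1762, 1300 and 1429.6 against 12.7, 12.7 and 18.4, and Tlr13, which senses bacterial RNA, differed by 3.35 (SE 0.30). Tlr1, which pairs with TLR2 on lipopeptides, fell, with 307, 172 and 391 against 5243, 6122 and 4419 (-4.01, SE 0.24). Tlr7 and Tlr4, the other 2 that fell and named after their values were seen, had -3.18 (SE 0.37) and -1.28 (SE 0.28). Unc93b1, which escorts endosomal Toll-like receptors, was not called, at 0.07 (95% interval -0.23 to 0.37, adjusted p = 0.75); it too was named after its value was seen.

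Of 19 costimulation genes, 7 were higher (36.8%, against 18.1% of all genes), 6 lower (31.6%, against 20.4%) and 6 not called. Havcr2 (6.44), Vsir (2.25), which encodes the inhibitory ligand VISTA, and the adhesion molecule gene Icam1 (1.99) rose. Lgals9, a galectin that binds TIM-3, fell, from 4003, 3834 and 4784 in B cells to 593, 613 and 712; its difference was -2.63 (SE 0.16) here and -0.89 in DEC205 cells of Flt3L mice. Named after their values were seen, Cd80 and Cd86, the ligands of CD28, rose by 2.28 (SE 0.36) and 2.92 (SE 0.23), and Icosl and Cd40 fell by 1.24 and 0.88.

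Of 13 chemokine genes measured, 9 were higher in DEC205 DCs (69.2%, against 18.1% of all genes), none lower and 4 not called. Behind Cxcl9 came Ccl5 (4.4, SE 0.41), Ccl6 (4.26, SE 0.26) and the membrane-bound Cxcl16 (3.08, SE 0.19). Of 16 homing receptors, 6 were higher (37.5%) and 8 lower (50%, against 20.4% of all genes). Ccr9, a gut-homing receptor, read 2354, 2111 and 2166 against 49.9, 55.4 and 19.1, whereas S1pr1, which lets lymphocytes leave the spleen, differed by -3.6 (SE 0.15). Of 24 cytokine genes and receptors, 15 were higher (62.5%) and 3 lower (12.5%). The stem cell factor receptor Kit read 5062, 4629.7 and 4432 against 61.2, 15.7 and 46.5, and Csf2ra, a chain of the GM-CSF receptor, rose by 3.9 (SE 0.15). Il21r fell, with 199, 222 and 249.6 against 2229, 2123 and 1859.9.

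Of 17 genes of the NF-kB pathway, 9 were lower (52.9%, against 20.4% of all genes), 1 higher and 7 not called, with a median of -0.35. Malt1, the protease below antigen receptors, fell by 1.39, Traf5 by 1.66 and Bcl3 by 1.62, while Traf1 rose by 1.8 (SE 0.24). Without DEC205 replicate 2 the count higher was 2. Of 23 interferon-response genes, 11 were lower (47.8%), 4 higher (17.4%, near the 18.1% of all genes) and 8 not called. Ddx58, which encodes the RNA sensor RIG-I, read 298, 276 and 327 in DEC205 DCs and 2652, 2840.1 and 2219 in B cells (-2.9, SE 0.14). Ifih1, its relative MDA5, ran the other way, with 970.5, 747 and 1103 against 90.3, 248 and 142 (2.3, SE 0.23). The GTPase genes Gbp3 and Mx1 also parted, at -3.04 and 1.91.

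Of 12 genes of the NADPH oxidase and of lipid mediators, 3 were higher, 3 lower and 6 not called; 25% each way is near the 18.1% and 20.4% of all genes. Cybb, the catalytic subunit gp91phox, read 140.4, 112 and 413 in DEC205 DCs and 6303, 7469 and 8228 in B cells, a difference of -4.93 (SE 0.30, adjusted p = 1.57e-11). The 33D1 DCs averaged 6310.2 ± 597, close to B cells. DEC205 replicate 3 held the highest value of its group; without it the fall remained called. Rac2, the GTPase of the complex, fell by 1.78. The subunit Ncf4 fell by 0.33, and its call was lost with median centring and without B cell replicate 1 or 2 or DEC205 replicate 1 or 2. Alox5ap, which feeds leukotriene synthesis, rose, with 17192, 22329 and 19928 against 260, 344 and 467. The count of 3 higher was 1 without DEC205 replicate 3 or any single B cell array.

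Cell cycle genes were higher in DEC205 DCs. Of 29 measured, 20 were called higher (18.1% of all genes were), 1 lower and 8 not called, with a median of 1.01. Top2a, a topoisomerase of dividing cells, differed by 2.37 (SE 0.30) and the spindle checkpoint kinase Bub1b by 2.57 (SE 0.28). Mki67, named after its value was seen, read 2381, 1992 and 4310.1 in DEC205 DCs and 306, 209 and 564 in B cells. The D-type cyclins split, with Ccnd1 at 4118, 4276 and 4754 against 413, 288 and 231 (3.65, SE 0.15) and Ccnd2 at 281, 389 and 411 against 2646, 2313 and 2777 (-2.69, SE 0.18). Ribosomal protein genes hardly differed, with 5 of 23 lower (21.7%, near the 20.4% of all genes), 1 higher and a median of -0.24. The count of 5 was 1 under quantile normalization or median centring and without B cell replicate 3 or DEC205 replicate 1, and it was 3 without DEC205 replicate 3. The count of 1 higher was 2 without B cell replicate 3 and none without B cell replicate 1 or 2 or DEC205 replicate 1. The 4 with the smallest adjusted p were Rpl12 (-0.73), Rps9 (-0.4), Rpl10a (-0.38) and Rpl8 (-0.39).

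Markers of other cells were read on the same arrays. The summed signal of 12 T cell markers was 755 to 890 in DEC205 DCs and 6029 to 6731 in B cells, against at least 101836 in either T cell group. Cd2 made up most of it in B cells (5826, 5173 and 5344, against 60.6, 9.8 and 57.4 in DEC205 DCs). T cell markers gave 1 call higher (Cd247) and 3 lower (Cd2, Cd3e and Zap70). Cd247 was not called without B cell replicate 3 or DEC205 replicate 2, nor Zap70 without B cell replicate 1 or DEC205 replicate 2. Zap70 also lost its call with quantile normalization or median centring. With only the 6 arrays compared, Cd247, Cd3e and Zap70 were not called. The sum of 9 macrophage and monocyte markers was 9289 to 13518 in DEC205 DCs and 1964 to 2671 in B cells, and 6 of the 9 were called higher (66.7%, against 18.1% of all genes). Lyz2 led it, with 7215, 5846 and 7606 against 287, 175 and 431, followed by Hmox1 (3.15, SE 0.36), Csf1r (1.74, SE 0.25) and Vcam1 (1.29, SE 0.30). Adgre1, which encodes F4/80, had -0.26 (95% interval -0.79 to 0.26, adjusted p = 0.47) and was named after its value was seen.

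The shares of these lists are to be read against 18.1% of all genes called higher and 20.4% lower. Of 8 neutrophil markers 2 were called higher (25%), S100a8 (182, 179.7 and 1018 in DEC205 DCs) and S100a9 (191, 80 and 806), and both were highest in DEC205 replicate 3. None was called without that replicate (differences 1.15, adjusted p = 0.158, and 1.33, adjusted p = 0.0506), and 1 was called without B cell replicate 1 or 2. Of 9 genes of NK and cytotoxic cells 2 were higher (22.2%), Klrk1 (3.99, SE 0.33) and Klrd1 (1.9, SE 0.21); none was lower, and 1 was without DEC205 replicate 2. Of 8 plasmacytoid DC markers 2 were higher (Ccr9 and Lair1) and 2 lower (Tcf4 and Pacsin1), 25% each way, and the sums were 4882 to 5051 in DEC205 DCs and 5188 to 6270 in B cells. Of 4 erythroid markers Car2 (-1.24, SE 0.21) and Tfrc (-0.57, SE 0.15) were lower. Their part in the results was not tested.

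Immediate early and heat shock genes were mostly not called, with 3 of 20 higher (15%) and 2 lower (10%), both under the shares of all genes. Ier3 (923, 769 and 1781 in DEC205 DCs against 9.9, 58.3 and 5.7) and Atf3 (1767, 1610.3 and 4597 against 50.6, 326 and 460.2) were higher, each highest in DEC205 replicate 3, and Klf2, a factor of resting lymphocytes, was lower, at -1.98 (SE 0.32). Jund differed by -0.93 (SE 0.19).

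The genes that DEC205 DCs share with B cells were taken as those at least 2-fold above 33D1 DCs and above each T cell group in both, with all 6 differences called. This held for 22 of 13284 genes (0.166%). Between DEC205 DCs and B cells, 8 of the 22 were called higher in DEC205 DCs, 4 lower and 10 were not called; for 10 of the 22 the 95% interval lay within 2-fold of equality. The rule sets how each gene stands to 33D1 DCs and T cells. It uses the same DEC205 and B cell arrays, so the split of calls between these cell types describes the selected genes and is no separate test. At 1.5-fold in place of 2-fold the set held 50 genes.

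Irf8 had the widest margin, by the smallest of its 6 differences. It encodes a factor on which CD8-positive DCs depend and which also acts in B cells. It read 22700, 26772 and 24718 in DEC205 DCs and 7733, 7597 and 7272 in B cells, against 249, 456 and 250.3 in 33D1 DCs and 349.9, 213 and 272 in CD4 T cells. Among the 2 cell types it was higher in DEC205 DCs, by 1.71 (SE 0.42, adjusted p = 0.00285). The second Irf8 probe set gave 1.89.

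Cd36, a scavenger receptor for lipids and dying cells, read 9195, 8908 and 8258 in DEC205 DCs and 1678, 2158 and 3056 in B cells. The 33D1 DCs read 55.5, 72 and 55.1, and CD4 T cells 47.6, 5.1 and 45. The groups DEC205 DCs and B cells did not overlap, and the difference was 1.95 (SE 0.34, adjusted p = 7.31e-05). All 3 Cd36 probe sets were called higher, by 1.41 to 1.95.

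Cd24a, a small glycosylphosphatidylinositol-anchored protein, was bright in both cell types. It read 12711, 14111 and 15383 in DEC205 DCs and 18919, 17494 and 23501 in B cells, against 824, 1368 and 897 in 33D1 DCs and 126, 117 and 183 in CD4 T cells. All 3 B cell values lay above the 3 DEC205 values, yet the difference, -0.5 (95% interval -0.96 to -0.04, adjusted p = 0.0873), was not called. With only these 6 arrays fitted it was called lower (-0.50, adjusted p = 0.0201). A further probe set was called lower, by 0.70 (adjusted p = 0.0106), and the third was not (-0.45, adjusted p = 0.168).

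Fcrla, an intracellular Fc receptor-like protein that binds immunoglobulin in the endoplasmic reticulum, was a B cell gene with a lower level in DEC205 DCs. It read 805, 667 and 569.8 there and 7374, 7065 and 7889.7 in B cells, a difference of -3.37 (SE 0.25, adjusted p = 3.88e-10). The 33D1 DCs read 65.1, 155 and 172 and CD8 T cells 138, 99.6 and 63.4. Its further probe sets gave -2.88 and -2.14. In DEC205 cells of Flt3L mice the signals were 596, 887 and 786, close to those of the wild-type pools.

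Btla and Rasgrp3 were level between the cell types. Btla read 13506, 15404 and 14575 in DEC205 DCs and 14921, 13969 and 11381 in B cells, a difference of 0.12 (95% interval -0.14 to 0.38, adjusted p = 0.52), and 2492 on average in 33D1 DCs. Rasgrp3, an exchange factor for Ras below the B cell receptor, read 4762, 3782 and 4890.3 against 4575, 5406 and 4182 (-0.08, 95% interval -0.65 to 0.50, adjusted p = 0.87), with 33D1 DCs at 2257, 2291 and 1734. Rasgrp3 left the set with an offset of 16 or without 33D1 replicate 3. Fcgr2b, the inhibitory Fc receptor for IgG, read 3597, 3404 and 3097 in DEC205 DCs and 6562, 7266 and 6015 in B cells, a difference of -0.96 (SE 0.23, adjusted p = 0.00241). Of its 4 probe sets, 1 read 1442 in CD4 T cells and 1346 in 33D1 DCs, where the others read under 820 in 33D1 DCs, so its place in the set depends on the probe set.

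Promoters of the shared genes were searched for 2 sites that PU.1, a factor of both lineages, is known to bind. The PU box GAGGAAGT, or its other strand ACTTCCTC, lay in 2 of 22 windows (9.09%), against 3.13% of windows of all genes tested and 7.32% of the 314 windows of genes above T cells in both cell types. The Ets-IRF composite element, at which PU.1 binds with IRF8 or IRF4, lay in 1 of 22 (4.55%), against 2.46% of all tested. These 3 windows are printed with the site in capitals:
Btla (chr16:45224289-45224336, plus strand): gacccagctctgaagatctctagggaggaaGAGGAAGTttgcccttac
Rasgrp3 (chr17:75435825-75435892, plus strand): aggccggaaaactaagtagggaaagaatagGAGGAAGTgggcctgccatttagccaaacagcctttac
Fcgr2b (chr1:170976072-170976136, minus strand): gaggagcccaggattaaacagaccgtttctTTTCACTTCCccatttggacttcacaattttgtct
The PU box starts 18 bases before the gene start in Btla and 50 before it in Rasgrp3, and the composite element 35 before it in Fcgr2b. Each site also lay in 4 of 88 windows (4.55%) of genes at least 16-fold lower in DEC205 DCs. Of the windows of genes at least 16-fold higher, 4% held the PU box and 1.6% the composite element. The counts are small, and a match shows the letters only.

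**Figure D5:**
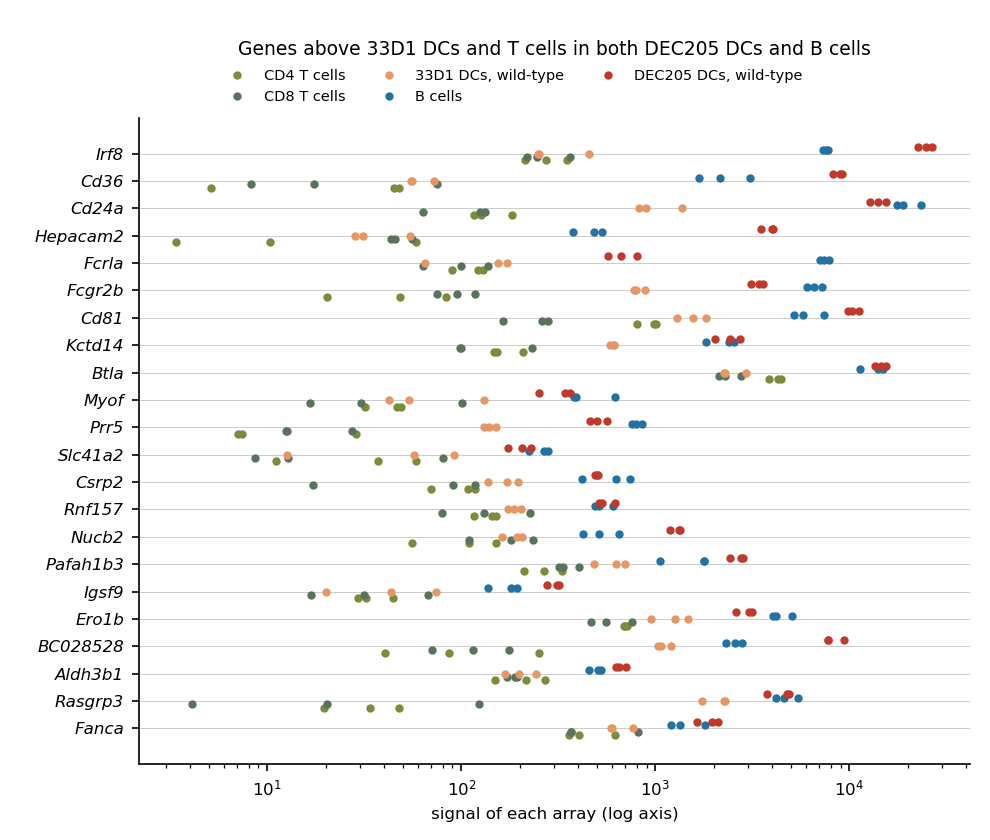
Signal on each array (log axis) of the 22 genes that lay at least 2-fold above 33D1 DCs and both T cell groups in DEC205 DCs and in B cells, ordered by the smallest of the 6 differences; each point is 1 array. For Irf8 and Cd36 the DEC205 points lie above the B cell points, for Fcrla below them, and for Btla and Rnf157 the points of both groups overlap.

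The other shared genes were dimmer or less distinct. Hepacam2, a cell adhesion protein, read 3967, 4019 and 3486 against 378, 483 and 533 and was higher in DEC205 DCs by 2.93 (SE 0.23). Cd81, described with the coreceptors, was a member, at 11158, 9859.8 and 10269 in DEC205 DCs and 5162, 5773 and 7378 in B cells. Nucb2, a calcium-binding protein, was higher by 1.22 (SE 0.27) and Prr5, a part of the mTORC2 complex, lower by 0.61 (adjusted p = 0.0188), a call lost without B cell or DEC205 replicate 3, with median centring and with an offset of 16. Kctd14 (0.1, 95% interval -0.33 to 0.53, adjusted p = 0.77), Slc41a2, a magnesium transporter (-0.28, 95% interval -0.97 to 0.41, adjusted p = 0.56), Csrp2, a LIM domain protein (-0.2, 95% interval -0.76 to 0.36, adjusted p = 0.62) and Rnf157, a ubiquitin ligase (0.04, 95% interval -0.41 to 0.49, adjusted p = 0.91), were not called and lay within 2-fold. Myof, a membrane repair protein, had -0.46 (95% interval -1.11 to 0.19, adjusted p = 0.28), an interval that reached past 2-fold. The remaining members were Pafah1b3, Igsf9, BC028528, Ero1b, Aldh3b1 and Fanca, listed to complete the set, with differences from -0.58 (Ero1b) to 1.68 (BC028528). Igsf9 was not called when any 1 of the 6 arrays was left out. Aldh3b1 and Igsf9 left the set with an offset of 100. Fanca left it without B cell replicate 1, and Aldh3b1 without CD4 T cell replicate 2.

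Against T cells alone, DEC205 DCs and B cells shared more. With all 4 differences called and at least 2-fold, 287 genes lay above CD4 and above CD8 T cells in both (2.16%); 115 of them were higher in DEC205 DCs than in B cells, 58 lower and 114 not called, and 121 had an interval within 2-fold of equality. The class II genes H2-Ab1, H2-Aa, H2-Eb1, Cd74, Ctsh, Marchf1 and H2-DMb2 were among the 15 with the widest margin. Wdfy4, which cross-presentation requires in DCs, read 23444, 26690 and 25640 in DEC205 DCs, 9156, 8164 and 7259 in B cells and 63.6 on average in CD4 T cells. It was higher in DEC205 DCs by 1.62 (SE 0.24). Ly86 (MD-1), a partner of the receptor RP105, read 9511, 9947 and 12701 against 14268, 15356 and 18481 and was not called (-0.58, 95% interval -1.25 to 0.09, adjusted p = 0.18). Every B cell value of Ly86 lay above every DEC205 value. With only these 6 arrays fitted it was called lower (-0.58, adjusted p = 0.0113).

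The aspartic protease Napsa was not called, at 10743, 9736 and 12524 in DEC205 DCs and 11874, 12039 and 16084 in B cells (-0.27, 95% interval -0.82 to 0.28, adjusted p = 0.48). Its interval lay within 2-fold, and Napsa was brighter in 33D1 DCs (17815 ± 1093). Pld4, an exonuclease of endosomes, was higher in DEC205 DCs by 0.99 (SE 0.17), and Rnase6 by 1.09 (SE 0.21). Of the lists, the B cell receptor list gave 9 of 19 above T cells in both cell types (47.4%), general DC markers 5 of 13 and costimulation 5 of 19, where 2.16% of all genes were. At 1.5-fold the set held 484 genes.

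DEC205 cells of Flt3L mice were set against the same B cell arrays, so both differences share them. They were 7.12 for Rab7b (wild type 7.08), 6.02 for Xcr1 (6.29), -7.87 for Cd79a (-7.81) and -8.31 for Ets1 (-8.14). The values lay further apart for Ltb, -6.82 against -4.33, for Ier3, 2.16 against 4.02, for Irf4, -5.12 against -4.03, for Cxcl9, 6.31 against 7.36, and for Hmox1, 1.58 against 3.15. These gaps were not tested.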

How the data were processed

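RNA of 7 groups of 3 samples was hybridised to microarrays. The deposited values are MAS5 signal intensities for which the submitters' processing notes name GCOS and MAS5 without versions; the 2% trimmed mean of each array is 500. Of 45101 probe sets, 34945 had 1 gene symbol, 932 several, 9160 none and 64 were controls; 34741 of those with 1 symbol matched RefSeq. Intensities were kept above 156.3 (the table median) on at least 3 arrays, and log2(signal + 48.6), the 25th percentile, was fitted with limma 3.58.1 (R 4.3.3; lmFit, eBayes with trend) on 21 arrays with 7 group means. Adjusted p-values are Benjamini-Hochberg over 23946 probe sets. A gene's probe set is the one with the highest mean over all arrays. The scripts were tested on simulated data. Of 100 simulated log2 differences of 1 between DEC205 DCs and B cells 57 were recovered, and of 100 of size 2 89 were. There were 6 false calls among the unchanged probe sets.

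Named genes are the 15 highest and 15 lowest non-overlapping called genes, the 15 of each shared set with the widest margin, all of the B cell receptor and MHC lists, up to 4 of each other list by adjusted p, and the label markers; others are marked as named after their values were seen. Of 559 listed genes, 473 were tested, 25 fell below the filter and 61 were not analysed here. Members and lists were chosen with earlier results of these data known. The number of arrays limits the precision. Alternatives changed the offset, filter, scaling, probe set rule, model, fold and arrays.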

Additional observations from a re-analysis of the deposited data

How the results depend on the processing

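With 15 alternative settings for each of 214 named genes, 3114 of 3210 values kept their direction and their side of the threshold, 83 (23 genes) lost the call and 13 (7 genes) gained it; none reversed, and 184 genes kept both under every setting run. The median over all genes moved from -0.081 as deposited to -0.036 with quantile normalization and -0.013 with median centring. With median centring 2179 genes were called higher and 1701 lower, against 2398 and 2710, so the direction with more calls changed. The shared set held 50 genes and the set above T cells 484 at 1.5-fold. With 1 replicate left out at a time, 4394 to 4904 genes were called of 5108, the shared set held 21 to 23 and the set above T cells 275 to 289. Same-numbered DEC205 and B cell arrays did not deviate together (r from -0.099 to 0.017). Over all groups, same-numbered arrays had r from -0.345 to 0.336, and 12 of 63 pairs exceeded 0.1. With only 3 DEC205 and B cell pairs, these values cannot settle whether the numbers pair the samples. With the replicate block, 5002 genes were called (2362 higher, 2640 lower), the shared set held 22 and the set above T cells 288; no count moved by over 1.5 times, and among the named genes Igsf9 lost its call and Btk gained one.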
